A study of Mus musculus with 6 samples.

Results

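The cytosolic ribosomal protein genes are the rows of the count table whose symbols begin with Rpl or Rps followed by a digit, together with Rplp0, Rplp1, Rplp2 and Rpsa. The 10 rows of the Rps6k kinases and the 7 rows whose symbols contain -ps, which mark pseudogenes, were left out. This gave 88 of the 24421 genes in the table. Of these, 77 encode canonical ribosomal proteins, 46 of the large and 31 of the small subunit. A further 9 are paralogs of canonical genes, 1 is the retrogene Rpl37rt, and 1, Rps19bp1, encodes a protein that binds Rps19 and is not itself a ribosomal protein.

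All libraries came from 4T1-tetL1(GLucAI) cells, a population of the mouse BALB/cfC3H breast carcinoma line 4T1 that stably carries a doxycycline-inducible LINE-1 (L1) retrotransposition reporter. The experiment addressed how induction of L1 changes the transcriptome. One group was untreated (n = 3; the treatment tag calls it vehicle), and the other received doxycycline for 48 h at 400 ng/mL (n = 3). The cassette was present in both groups, and no arm received doxycycline without it, so an effect of the drug and an effect of L1 cannot be told apart.

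The cytosolic ribosome is built from ribosomal RNA and about as many different proteins as the list above holds canonical genes, most of them needed in equal numbers. The genes are scattered over the chromosomes, yet their mRNAs are abundant and usually move together. Many of these mRNAs begin with a C followed by an uninterrupted run of pyrimidines, the 5′ terminal oligopyrimidine (5′ TOP) motif, through which mTORC1 and the RNA-binding protein LARP1 control their translation and stability. RNA counts do not measure the translation of these mRNAs.

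The start of several genes is shown because this pyrimidine run is the sequence feature that the family is known for. Each line holds 30 bases of the transcript strand, from 10 bases before to 20 bases from an annotated RefSeq start in GRCm38.p6, with the longest run of C or T in capitals. The first 6 genes have a run of at least 8 bases and the last 2, Rpl4 and Rps28, have none.
Rpl35 (chr2:39005112-39005141, minus strand): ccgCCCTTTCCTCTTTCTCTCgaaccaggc
Rpl13a (chr7:45128726-45128755, minus strand): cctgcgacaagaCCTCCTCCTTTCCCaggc
Rps12 (chr10:23787190-23787219, minus strand): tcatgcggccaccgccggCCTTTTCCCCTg
Rps6 (chr4:86857348-86857377, minus strand): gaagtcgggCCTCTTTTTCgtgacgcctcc
Rplp2 (chr7:141447641-141447670, plus strand): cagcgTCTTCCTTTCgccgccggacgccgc
Rpl38 (chr11:114668570-114668599, plus strand): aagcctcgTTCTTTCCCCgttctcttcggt
Rpl4 (chr9:64173377-64173406, plus strand): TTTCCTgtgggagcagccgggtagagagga
Rps28 (chr17:33824543-33824572, minus strand): cgcgtgcggTCTCgcgagagcgaaagtgag

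Start windows were at hand for 67 of the 88 genes. For each gene the longest run over its annotated starts was taken. A run of at least 8 C or T bases on the transcript strand was found for 24 of them (35.8%), against 3491 of 26948 other genes (13.0%). Counted per annotated start, it was found at 24 of 79 (30.4%), against 3667 of 32758 (11.2%). Windows without such a run say only that these letters were not found near the annotated start, which can lie some bases from the start a cell uses. The genes with and without a run are compared further on, after their changes between the groups.

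Library totals lay between 31653464 and 43631312 counts and their ranges overlapped between groups. Of 10 epithelial markers fixed for the line, 10 were tested, led by Krt18 at 633 CPM (the share of a library's TMM-scaled total, in counts per 1e6) in untreated libraries. Of 6 hematopoietic markers 1 was tested and of 4 endothelial markers 0 were, with group means of at most 0.435 CPM. Pdgfra was the only fibroblast marker above 1 CPM, at a mean of 36.7 CPM in untreated and 27.8 CPM in doxycycline libraries. It was called lower (edgeR adjusted p = 0.000952), as was 1 epithelial marker, Krt19 (log2 fold change -0.31, edgeR adjusted p = 0.00782), a call lost without untreated replicate 2 or doxycycline replicate 3 (0.0713 and 0.0799), and no other marker was called. The L1 cassette was not analysed here, so the direction of each difference rests on the group labels.

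Ribosomal protein mRNAs took a similar part of the RNA in both groups. The 88 genes held 3.94, 3.56 and 3.75% of the counts in untreated replicates 1 to 3 and 3.90, 3.77 and 3.70% in doxycycline replicates 1 to 3. The untreated range thus enclosed the doxycycline range. Since a count is a share of its library, a change in total RNA per cell would not show here. The median of the 82 tested genes was 409.97 CPM, against 24.4 CPM over all 13084 tested genes. Among the 100 genes with the highest mean CPM, 12 were ribosomal protein genes. Rpsa, the small subunit protein that is also known as a laminin receptor, was the most abundant of them in CPM and ranked 21 in the whole table. It held 1804, 1694 and 1783 CPM in untreated and 1804, 1851 and 1818 CPM in doxycycline libraries.

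**Figure D1:**
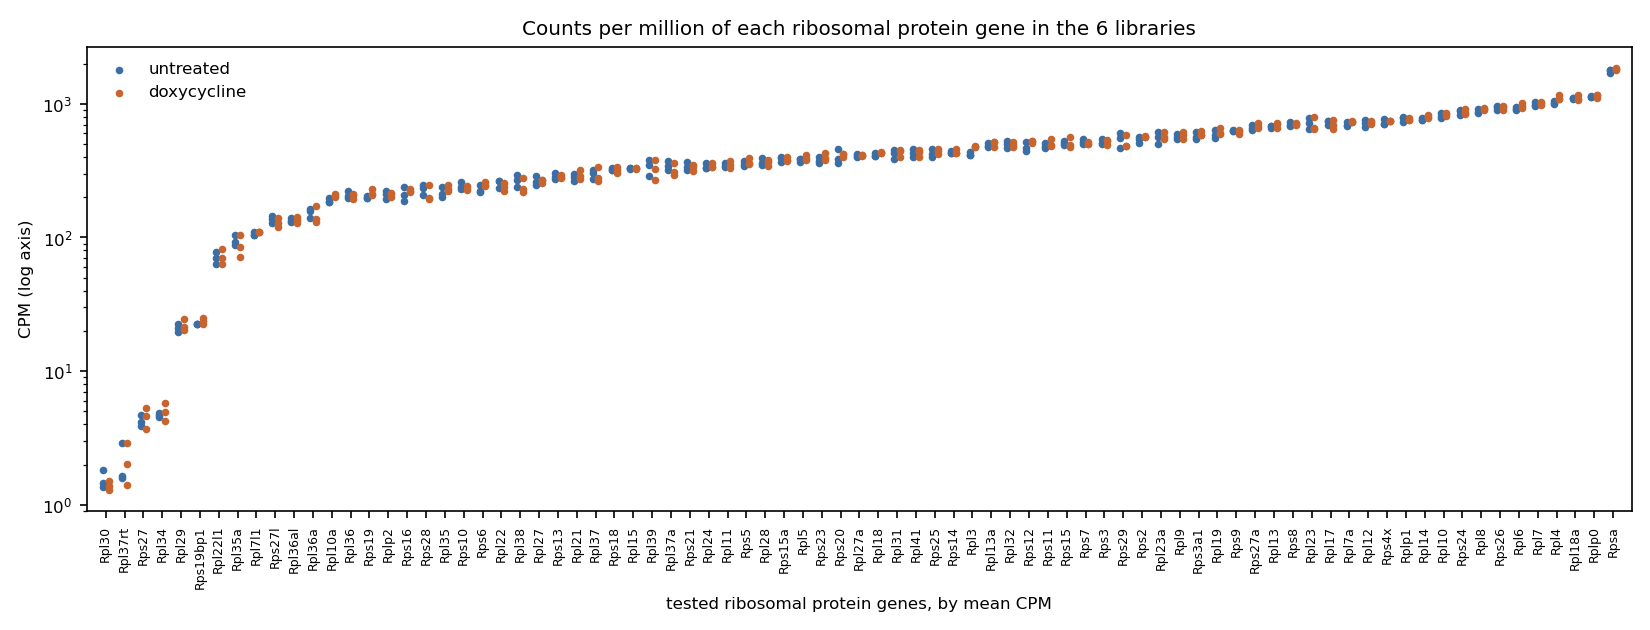
CPM (log axis) of 81 of the tested ribosomal protein genes, ordered by mean, with 1 point per library (blue, untreated; orange, doxycycline). Points of both groups lie together for nearly every gene, 73 genes average at least 100 CPM, and 6 lie under 30 CPM.

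Because long transcripts collect more reads, levels of different genes were compared per kilobase of transcript. In untreated libraries the 76 tested canonical genes had a median of 608 CPM per kb, with quartiles of 409.99 and 843 CPM per kb, and 61 of them lay within 2 times of the median. The 5 highest levels belonged to Rplp1, an acidic protein of the stalk that recruits translation factors (1545 ± 76.8 CPM per kb, SD, n = 3), Rps29 (1383 ± 179), Rps26 (1373 ± 41.5), Rpsa (1101 ± 36.3) and Rps27a, which is made as a fusion to ubiquitin (1044 ± 49.2). Rps29 and Rps26 differed by less than the SD of Rps29, so their order is not resolved. Rps27a and the next gene, Rpl8 (1031 ± 36.6), differed by less than the SD of Rps27a, so its place among the 5 is not resolved either. The 5 lowest were Rpl30 (2.72 ± 0.432), Rpl34 (9.76 ± 0.341), Rps27 (12.3 ± 1.20), Rpl29 (36.0 ± 2.52) and Rps20 (109 ± 13.2). The value of Rps20 depends on an annotated transcript of 3706 nt around a coding sequence of 357 nt, and it stood at 361 to 457 CPM before division by length.

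Rpl26 was listed at 0 counts in all 6 libraries, where 3 counts would be 0.0688 to 0.0948 CPM. Rpl30 held 1.29 to 1.83 CPM, Rps27 3.71 to 5.28 CPM, Rpl34 4.21 to 5.72 CPM and Rpl29 19.5 to 24.4 CPM. These genes encode canonical ribosomal proteins, and their counts were far under those of most other canonical genes. Many ribosomal protein mRNAs have processed copies elsewhere in the genome. Of the 50-base windows of the annotated transcript, 71.3% for Rpl26, 76.4% for Rpl30, 98.7% for Rps27, 50.6% for Rpl34 and 78.5% for Rpl29 occurred in the transcript of at least 1 other annotated gene. Such sharing is not particular to these genes, since the median over the 88 genes was 58.7%, and 8 of the 88 shared over 90%. Rps27 shared most with the retrogene Rps27rt, which was itself listed at 0. Rpl10 shared 92.1% of its windows and held 782 to 852 CPM. Over the 76 tested canonical genes, which leave out Rpl26, the Spearman correlation between shared windows and CPM per kb was -0.124. It is a description over genes of the same libraries. How reads that map to several places were counted is not given in the sources used here, so the level of any of these genes is uncertain, and the part of shared reads in the low counts was not tested.

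Ribosomal protein mRNAs differed little between doxycycline and untreated libraries. Of the 82 tested genes, 1 was called higher, Rpl3, and 0 were called lower (edgeR, adjusted p under 0.05). Over all tested genes 0.925% were called higher and 2.16% lower. At an unadjusted p under 0.05 there were 6 ribosomal protein genes, all higher, while 16.2% of all tested genes reached that level. By DESeq2 and by limma voom the counts were also 1 and 0. The remaining 6 genes of the 88 had too few counts to be tested. They are Rpl26, Rpl10l, Rpl39l, Rps4l and Rps27rt, listed at 0 in every library, and Rpl3l.

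Rpl3, a large protein of the 60S subunit that lies near the peptidyl transferase center, carried the call. Its gene lies on chromosome 15 (chr15:80077781-80083406, GRCm38.p6). It held 437, 414 and 416 CPM in untreated and 474, 483 and 474 CPM in doxycycline libraries. All 3 doxycycline values lay above all 3 untreated values, with means of 422 ± 12.8 and 477 ± 4.87 CPM. The log2 fold change was 0.18 ± 0.043 (SE), with a 95% interval from 0.09 to 0.27 (edgeR adjusted p = 0.0245). The size of the difference did not depend on 1 library, but the call did. Without untreated replicates 1, 2 and 3 the edgeR adjusted p was 0.0519, 0.14 and 0.207, and without doxycycline replicate 3 it was 0.0845, with log2 fold changes from 0.16 to 0.20 across these fits. Of the 50-base windows of Rpl3, 85.6% also occur in other annotated transcripts, most of them in Rpl3-ps1.

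The next highest changes, below the threshold, belonged to genes of both subunits. Rps6, the small subunit protein that S6 kinases phosphorylate, held 245, 218 and 221 CPM in untreated and 245, 259 and 247 CPM in doxycycline libraries (log2 fold change 0.13, edgeR adjusted p = 0.174). The untreated replicate 1 value lay within the doxycycline range. Rps12 held 515, 443 and 469 against 530, 529 and 506 CPM (0.13, edgeR adjusted p = 0.185), with the groups overlapping in the same way. Rpl4 held 1053, 998 and 1011 against 1083, 1155 and 1091 CPM (0.12, edgeR adjusted p = 0.156), and Rpl10a 197, 185 and 185 against 202, 211 and 204 CPM (0.12, edgeR adjusted p = 0.182). For both the groups did not overlap. Rps19, the protein most often mutated in Diamond-Blackfan anemia, held 205, 198 and 196 against 208, 229 and 211 CPM (0.11, edgeR adjusted p = 0.231), again without overlap. Rpl35 (0.11) and Rps27 (0.10, at about 4 CPM) completed the 8 highest values.

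The lowest values lay mainly with small proteins. Rpl30 (log2 fold change -0.15) was measured at about 1.5 CPM, with an interval from -0.67 to 0.38. Rpl38, which is known for its part in translating Hox mRNAs, held 293, 237 and 267 CPM in untreated and 277, 219 and 231 CPM in doxycycline libraries (-0.14, edgeR adjusted p = 0.531). Rps28 held 249, 209 and 233 against 248, 194 and 198 CPM (-0.11, edgeR adjusted p = 0.619), and Rpl37a 373, 320 and 345 against 359, 296 and 308 CPM (-0.11, edgeR adjusted p = 0.431). In all 3 genes the groups overlapped, replicate 1 was the highest library of each group and replicate 2 the lowest. Without doxycycline replicate 1 these 3 genes, and no other members, were called lower, at log2 fold changes of -0.24, -0.23 and -0.20 (edgeR adjusted p = 0.0499, 0.0206 and 0.0381), where 2.68% of all genes were. Rpl35a (-0.12), Rpl22 (-0.10) and Rps27l (-0.08) were not past the threshold.

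**Figure D2:**
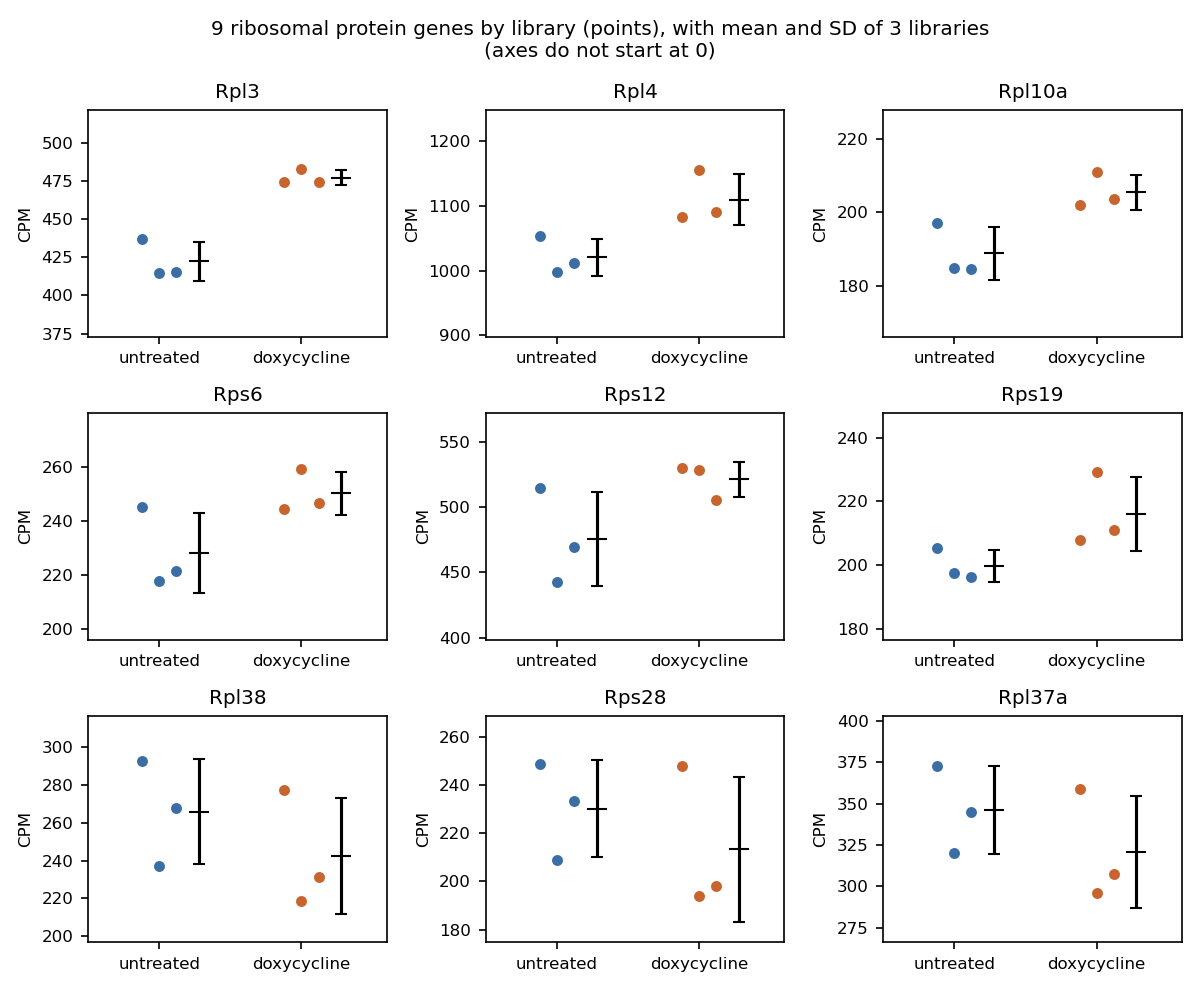
CPM of 9 ribosomal protein genes in each library (points), with the mean and SD of 3 libraries beside them; the vertical axes do not start at 0. Rpl3, Rpl4, Rpl10a and Rps19 have all doxycycline points above the untreated ones, while Rpl38, Rps28 and Rpl37a overlap, with replicate 1 highest in each group.

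The 95% intervals limit the change of single genes, not a change shared by all, since the genes come from the same libraries. The median log2 fold change of the 82 genes was 0.02, with quartiles of -0.01 and 0.06, and the median over all tested genes was 0.00, with quartiles of -0.09 and 0.09. Of the 82 genes, 50 lay above 0 and 32 below it. The 95% interval lay wholly within 0.1 of 0 for 3 genes, within 0.2 of 0 for 57 and within 0.3 of 0 for 73. The 9 others were Rpl30, Rpl34, Rpl35a, Rpl37rt, Rpl38, Rpl39, Rps27, Rps28 and Rps29, and 4 of these averaged under 30 CPM. The 49 large subunit symbols had a median of 0.02 and 31 lay above 0, and the 33 small subunit symbols had a median of 0.01 and 19 lay above 0. The doxycycline libraries were all above the untreated ones for 6 genes (Rpl3, Rpl4, Rpl10a, Rps19, Rpl7a and Rpsa) and all below for 0, against 10.1% and 11.1% of all tested genes. A shift of the median was within the spread between libraries. The mean log2 CPM of the 82 genes was 8.32, 8.18 and 8.25 in untreated and 8.32, 8.25 and 8.23 in doxycycline libraries, so replicates of a group differed by more than the groups did. The median log2 fold change was 0.0511, -0.0008 and 0.0131 without untreated replicates 1 to 3, and -0.0093, 0.0099 and 0.0376 without doxycycline replicates 1 to 3. Without untreated replicate 1, 70 of the 82 genes lay above 0, and without doxycycline replicate 1, 38 did.

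**Figure D3:**
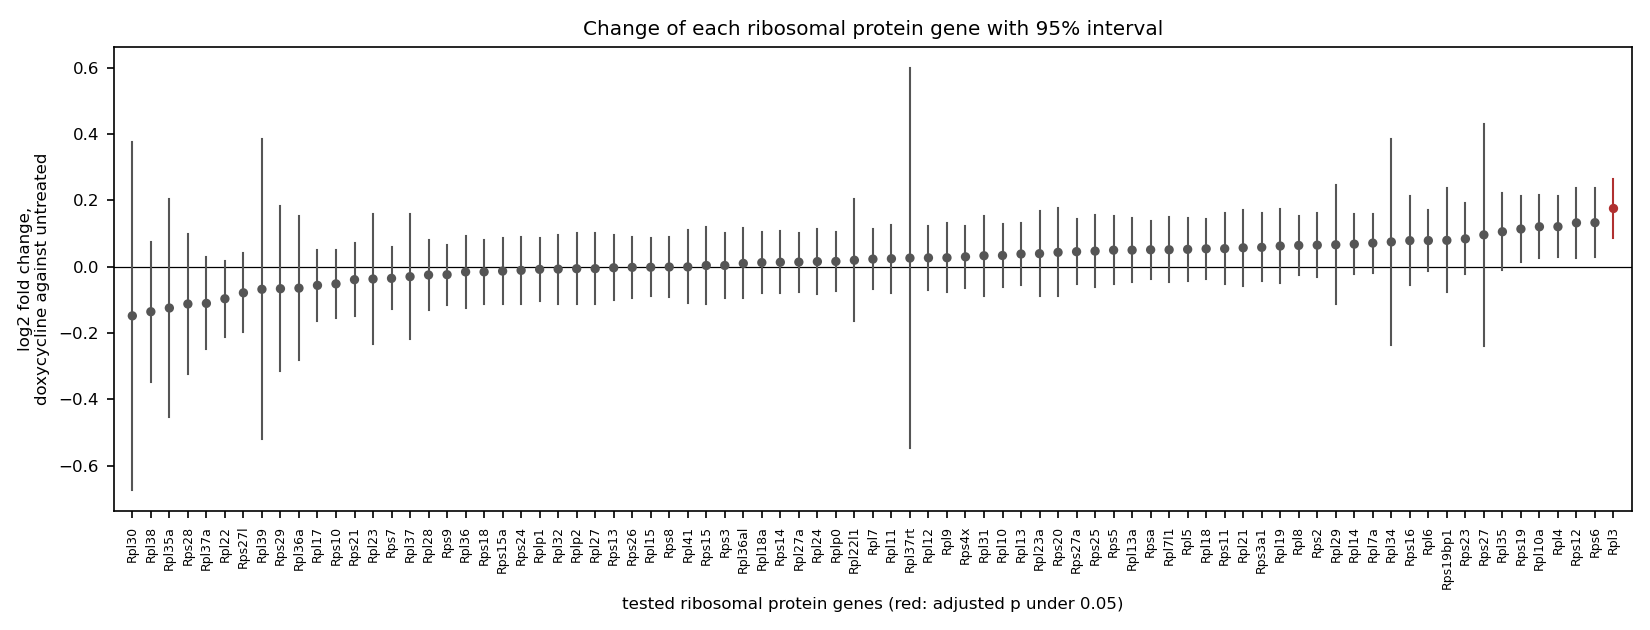
Log2 fold change of doxycycline against untreated libraries for 81 of the tested ribosomal protein genes, with 95% intervals and ordered by value (red, adjusted p under 0.05). Only Rpl3, at 0.18, is red, and the widest intervals belong to genes with few counts, such as Rpl30 and Rpl37rt, and to short genes such as Rpl39.

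The differences between the groups ordered the genes by the length of the protein, with a wide scatter. Over the 81 tested genes with a coding length, the log2 fold change and the log2 coding length had a Pearson correlation of 0.535 and a Spearman correlation of 0.54, a description over genes that share the same libraries. The 10 genes with a coding sequence under 300 nt had a median of -0.07 and 1 lay above 0. The 29 genes of 300 to 449 nt had a median of -0.0018, the 19 of 450 to 599 nt 0.02, and the 20 of 600 to 899 nt 0.05, with 18 above 0. The 3 genes of at least 900 nt, Rpl3, Rpl4 and Rplp0, had a median of 0.12. Rplp0, at 0.02, was well below the other two.

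Genes outside the family showed a gradient in the same direction, with a weaker correlation over single genes. Over 12086 other tested genes with a coding length, the Pearson correlation was 0.067 and the Spearman correlation 0.104. The 237 other tested genes with a coding sequence under 300 nt had a median log2 fold change of -0.07, the 564 of 300 to 449 nt -0.05, the 715 of 450 to 599 nt -0.03, the 1661 of 600 to 899 nt -0.01, and the 8909 longer ones 0.01. At 450 to 899 nt the median of the ribosomal protein genes was above 0 and that of the other genes below it. The gradient also ran between libraries of the same group. The summed CPM of the 39 ribosomal protein genes under 450 nt, divided by that of the 23 genes of at least 600 nt, was 0.871, 0.809 and 0.857 in untreated and 0.865, 0.786 and 0.783 in doxycycline libraries. Doxycycline replicate 1 thus lay within the untreated range, and the other two doxycycline libraries below it. The same quotient for other genes was 0.0792, 0.0761 and 0.0793 in untreated and 0.0748, 0.0714 and 0.0736 in doxycycline libraries, without overlap. The part of fragment size or library preparation in this gradient was not tested.

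**Figure D4:**
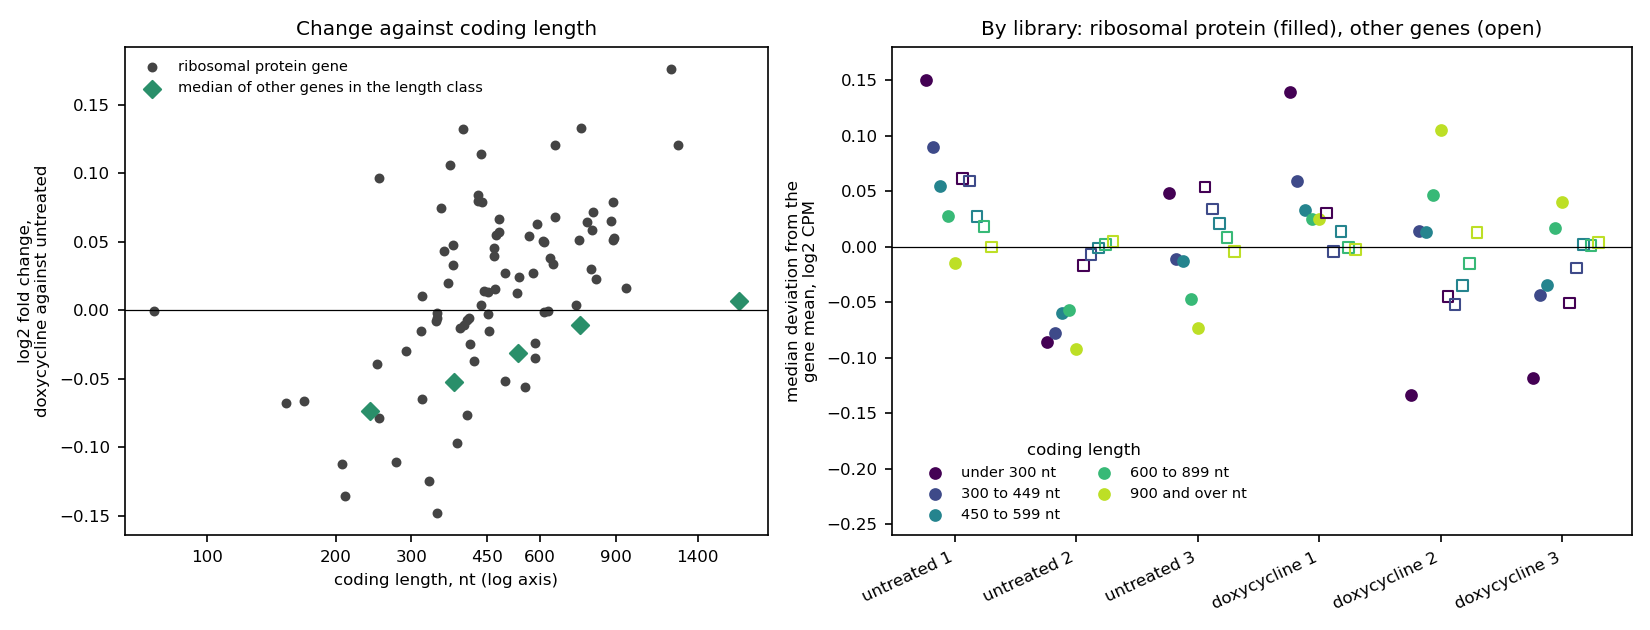
Left, log2 fold change of each tested ribosomal protein gene against its coding length (log axis), with the median of other genes in 5 length classes (diamonds, at the median length of the class). Right, for each library, the median deviation of log2 CPM from the gene's mean by length class for ribosomal protein genes (filled) and other genes (open). Ribosomal protein genes under 300 nt deviate by 0.15 in untreated replicate 1 and 0.14 in doxycycline replicate 1, and by -0.13 in doxycycline replicate 2.

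With each library corrected for GC content and transcript length, more of the family passed the threshold. In that fit 6 of 82 ribosomal protein genes were called higher and 0 lower, where 3.08% of all genes were called higher. They were Rpl3 (0.17), Rps12 (0.16), Rps19 (0.15), Rps6 (0.15), Rpl10a (0.14) and Rpl4 (0.13), with edgeR adjusted p of 0.000574, 0.0058, 0.00678, 0.016, 0.011 and 0.0226. Their log2 fold changes moved by at most 0.04 from the uncorrected fit. The median of the 82 genes became 0.04. The correction followed the trend over all genes with GC content and transcript length, not coding length. It therefore need not remove a gradient within the family. There the Spearman correlation with coding length became 0.442. For the other genes it became 0.089.

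The genes with a pyrimidine run in the start window, as in the sequences of Rpl35 and Rps6 above, were set beside those without one, with no test. The run could lie anywhere in the window, as in Rps12 from 8 bases after the annotated start. It need not be a 5′ TOP motif. Of the genes with a start window, 24 tested genes with a run had a median change of 0.01 on the log2 scale, and 12 lay above 0. The 38 tested genes without one had a median of 0.03, with 26 above 0. Rpl35, with the long run printed above, stood at 0.11, and Rpl38, also with a run, at -0.14.

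No gene was called in the functional groups within the ribosome that follow. In the stalk, where Rplp0 anchors Rplp1 and Rplp2, Rplp0 held 1152, 1121 and 1131 CPM in untreated and 1100, 1169 and 1173 CPM in doxycycline libraries (log2 fold change 0.02). Rplp1 (-0.01) and Rplp2 (-0.01) lay as close to 0. The groups overlapped for all of them. Rpl5 and Rpl11, which with the 5S RNA bind Mdm2 when ribosome assembly fails, stood at 0.05 and 0.02, with 95% intervals from -0.04 to 0.15 and from -0.08 to 0.13. Rps3, a protein of the mRNA entry channel, stood at 0.00 (-0.09 to 0.10).

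Paralogs were expressed below their canonical partners with 1 exception, Rps27. In untreated libraries Rpl7l1 held 81.0 CPM per kb against 857 for Rpl7, Rpl22l1 128 against 538 for Rpl22, and Rpl36al 255 against 317 for Rpl36a. Rps27l, a p53 target in other cells, held 274 CPM per kb against 12.3 for Rps27, of whose 50-base windows 98.7% also occur in Rps27rt. Rpl3l, the muscle paralog of Rpl3, had 7, 0 and 5 counts in untreated and 0, 1 and 3 counts in doxycycline libraries, at or near the floor of 3 counts. Rpl10l, Rpl39l and Rps4l were at 0 beside Rpl10 (1017 CPM per kb), Rpl39 (555) and Rps4x (748). In the comparison, Rpl7l1 (log2 fold change 0.05), Rpl22l1 (0.02), Rpl36al (0.01) and Rps27l (-0.08) were not called, nor were Rpl7 (0.02), Rpl22 (-0.10), Rpl36a (-0.06), Rpl10 (0.03), Rpl39 (-0.07) and Rps4x (0.03). Rps19bp1 held 22.4, 22.5 and 22.7 CPM in untreated and 22.5, 24.9 and 23.9 CPM in doxycycline libraries (0.08, edgeR adjusted p = 0.659).

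Some ribosomal proteins have symbols that fall outside the rule. Fau, a ubiquitin-like fusion to Rps30, had a log2 fold change of 0.10, and Rack1 (as Gnb2l1), a scaffold on the head of the small subunit, of -0.01, and neither was called. Rps27a stood at 0.05.

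More genes were called among the factors that assemble ribosomes, which process the precursor RNA and load the proteins onto it. Of 97 ribosome assembly factors listed, 92 were in the table and tested. Of these, 12 were called higher (13.0%, against 0.925% of all tested genes) and 0 lower. In the list 88 lay above 0, with a median log2 fold change of 0.11. It was fixed with earlier results of these data known, so these counts only describe it. Rrp9, a protein of the U3 snoRNP, rose from 45.2, 44.2 and 44.5 CPM to 56.1, 57.5 and 53.2 CPM (log2 fold change 0.32, edgeR adjusted p = 0.00249). Pwp2, of the early small subunit precursor, rose from 47.5, 48.2 and 48.6 CPM to 56.1, 59.0 and 57.9 CPM (0.26, edgeR adjusted p = 0.0103). Ppan, of the large subunit precursor, rose from 61.4, 60.1 and 60.3 CPM to 69.8, 78.7 and 68.5 CPM (0.26, edgeR adjusted p = 0.0176). Utp20 rose from 244, 239.8 and 236 CPM to 278, 284 and 293 CPM (0.25, edgeR adjusted p = 0.00167). In these 4 genes the groups did not overlap. Rrp9 and Utp20 kept their call with each library left out in turn. Ppan lost it without any of the untreated replicates (edgeR adjusted p up to 0.118), and Pwp2 without any of them or doxycycline replicate 3 (up to 0.0686).

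The other 8 called assembly factors were Rrp12, Nop56, Utp14a, Mdn1, Noc2l, Ddx18, Ftsj3 and Sdad1. Utp14a and Sdad1 lost their call in 5 of the 6 fits that each left out 1 library. Rrp12, Noc2l and Ftsj3 lost it in 4 of them, Ddx18 in 3, Nop56 in 2 and Mdn1 in 1. Sdad1 was also not called by limma voom. The size of the list's shift changed little between fits and its count changed more. The median lay between 0.10 and 0.12 in the 6 fits that each left out 1 library. The count was 5, 3 and 2 without untreated replicates 1 to 3 and 17, 26 and 5 without doxycycline replicates 1 to 3, and 32 with the GC content and length correction. Their coding sequences are long, with a median of 1716 nt. The median of the list in the corrected fit was 0.12. The difference between this list and the ribosomal protein genes was not itself tested.

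RNA polymerase I and its factors, which make the ribosomal RNA precursor, had 0 of 20 tested genes called by edgeR, DESeq2 or limma voom. An unadjusted edgeR p under 0.05 was reached by 7 of the 20, against 16.2% of all tested genes. Of these 7, only Polr2l was lower (log2 fold change -0.17). In the list 15 genes lay above 0, with a median of 0.07. The precursor Rn45s itself took 8.83, 11.04 and 9.64% of the counts in untreated and 9.60, 12.1 and 10.5% in doxycycline libraries, after ribosomal RNA depletion, which limits what its level says. Another list holds genes outside the family with a known 5′ TOP mRNA, among them translation factors such as Eef2 and Eif4b and other genes such as Tpt1, Vim and Npm1, the last also on the assembly factor list. It had 0 of 19 called and a median of 0.02. The noncoding snoRNA hosts with a 5′ TOP RNA, such as Gas5, had 0 of 8 called and a median of 0.02. In both lists 0 genes were called by DESeq2 or limma voom, and 0 had an unadjusted edgeR p under 0.05, against 16.2% of all tested genes. Both medians were close to that of the ribosomal protein genes.

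Among 23 tested genes of mTORC1, LARP1 and the kinases of ribosomal proteins, 1 was called lower and 0 higher, where 2.16% of all tested genes were called lower and 0.925% higher, so that 1 call in a list of this size, or in the next lists, says little about the list. Ddit4, an inhibitor of mTORC1 that stress and hypoxia induce, fell from 26.7, 23.3 and 27.1 CPM to 18.7, 17.5 and 13.6 CPM (log2 fold change -0.63, edgeR adjusted p = 0.000636). Of 8 tested genes of the Myc network, Mxi1, which competes with Myc for Max, was called lower (-0.33, edgeR adjusted p = 0.0133). Of 15 chaperones and turnover factors of ribosomal proteins, 1 was called higher, Grwd1, a chaperone of Rpl3. It rose from 55.3, 52.3 and 47.2 CPM to 60.4, 61.6 and 62.7 CPM (0.25, edgeR adjusted p = 0.0245). Ddit4 was called with each library left out in turn. Mxi1 lost its call without untreated replicate 3 or doxycycline replicate 3 (edgeR adjusted p = 0.148 and 0.0845), and Grwd1 without untreated replicate 2 or 3 or doxycycline replicate 3 (0.0895, 0.226 and 0.125).

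**Figure D5:**
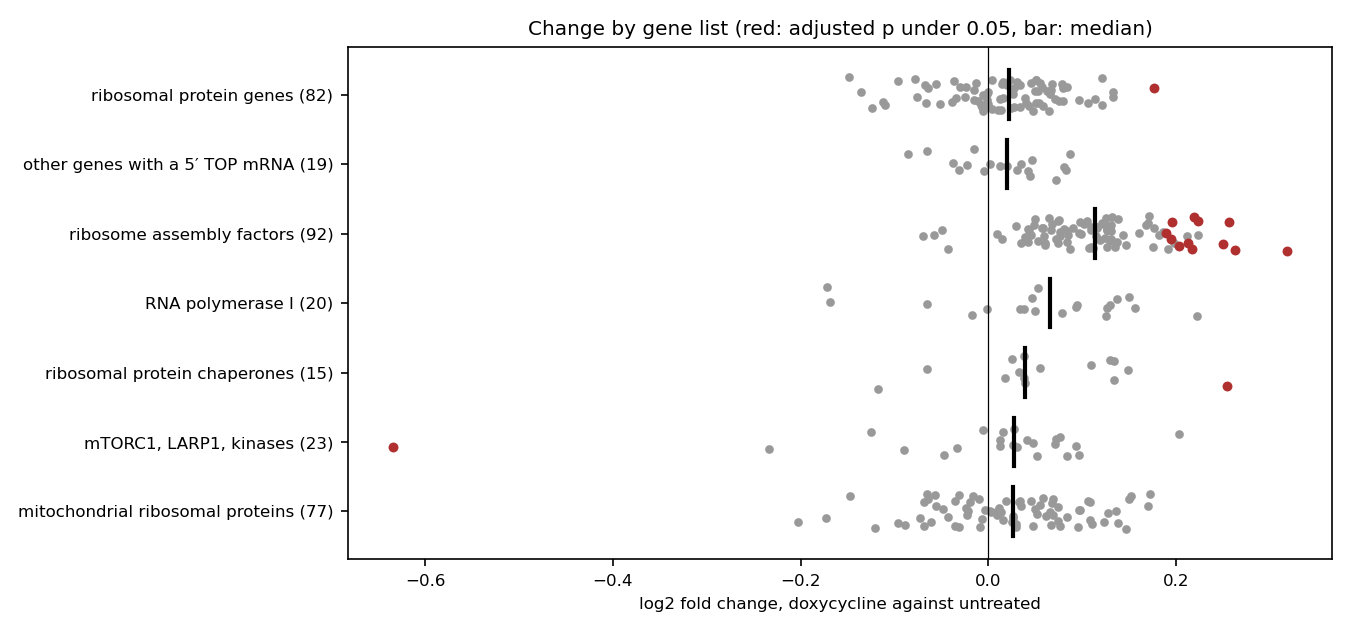
Log2 fold change of doxycycline against untreated libraries for each tested gene of 7 lists (points; red, adjusted p under 0.05; bar, median), with the number of tested genes in parentheses. The ribosomal protein genes center at 0.02 with 1 red point, and the ribosome assembly factors at 0.11 with 12.

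The mitochondrial ribosomal protein genes encode the proteins of the separate ribosome inside mitochondria. Of 77 tested, 0 were called by edgeR, DESeq2 or limma voom and 4 had an unadjusted edgeR p under 0.05, against 16.2% of all tested genes, with 48 above 0 and a median log2 fold change of 0.03.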

How the data were processed

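Total RNA from 6 cultures was depleted of ribosomal RNA and sequenced. The authors aligned reads with STAR to GRCm38 (mm10) and deposited raw read counts per gene from featureCounts (Subread 1.6.2), with no normalization. The strand setting and the treatment of multi-mapping and overlapping reads are not given in the sources used here, so counts of genes that share sequence or overlap another gene, as Rps27a, Rpl35 and Rpl31 do, are uncertain. Groups come from the sample titles, and the sources call the cultures triplicates. All columns were matched to a sample (0 unmatched).

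Groups were compared with glmQLFTest in edgeR 4.0.16 (quasi-likelihood; R 4.3.3; TMM scaling, filterByExpr, robust, group only) on all 13084 genes that passed the filter, with Benjamini-Hochberg adjustment and a threshold of 0.05. SE is the absolute log2 fold change over the square root of F. CPM use TMM-scaled totals, and a floor of 3 counts and all intervals at 95% cover the spread or counting error of these libraries only. No replicate pair agreed within sampling noise (chi-square per degree of freedom 6.14 to 22.06). Coordinates and start windows are from RefSeq (GRCm38.p6) and lengths from GENCODE (shortest principal coding transcript), with GC content and length known for 99.25% of tested genes. Lengths of some transcripts, such as that of Rps20, are uncertain.

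The members and lists were chosen with earlier results of these data known. Named are each called member, the 8 highest and 8 lowest log2 fold changes, the 5 highest and 5 lowest levels per kb, fixed members with roles or paralogs, untested members, and up to 4 called genes of each other list. Some items chosen by this rule are not reported here. Rpl7a was added after its values were seen, as were the remaining called assembly factors. Alternatives were other scalings and filters, the replicate block, leaving out each library, DESeq2 1.42.0, limma 3.58.1 voom, a loess correction for GC content and length, leaving out Rn45s, and canonical genes only. The correction with the replicate block, and all alternatives for the assembly factors, were added after seeing the data. Scripts were tested on simulated data.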

Additional observations from a re-analysis of the deposited data

How the results depend on the processing

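Under other scalings, other filters, DESeq2, limma voom, without Rn45s, with the scaling set by other genes and over canonical genes only, 1 ribosomal protein gene was called higher and 0 lower, as in the reported fit. With each library left out in turn these counts ran from 0 to 1 and from 0 to 3, and those of all genes from 44 to 269 higher and from 116 to 487 lower. With no filter on low counts 210 genes passed as higher and 439 as lower. The GC content and length correction gave 6 ribosomal protein genes higher, 400 genes higher and 491 lower in all, and 32 assembly factors higher. With the replicate block added it gave 7, 339, 444 and 28, Rpl35 being the seventh. The assembly factor count ran from 2 to 26 with a library left out. The cause of these shifts was not tested.

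Over all tested genes, deviations of same-numbered libraries correlated at -0.04, -0.004 and 0.018. These values gave no sign of pairing by replicate number, but with 3 libraries per group they cannot exclude it. Rpl38, Rps28 and Rpl37a were highest in replicate 1 and lowest in replicate 2 of both groups. Rpl4 was lowest in untreated replicate 2 and highest in doxycycline replicate 2. The replicate block alone gave 1 ribosomal protein gene higher and 0 lower, a median log2 fold change of 0.0221 for the family, 118 genes higher and 300 lower, and 10 assembly factors higher.

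The 38 named and tested ribosomal protein genes gave 684 values under the alternatives, of which 631 kept their direction and their side of the threshold. Rpl3 lost its call in 4 fits that left out a library, and 14 values passed the threshold that had not. The sign turned in 35 values of 15 genes that were not called in any fit concerned, so no direction can be given for them. With a library left out the log2 fold change ran from -0.0259 to 0.064 for Rpl11, -0.083 to 0.0998 for Rpl22l1, -0.0114 to 0.1181 for Rpl29, -0.0382 to 0.1805 for Rpl34, -0.1932 to 0.0097 for Rpl36a, -0.0289 to 0.0521 for Rpl36al and -0.1966 to 0.052 for Rpl39. It ran from -0.0003 to 0.0449 for Rplp0, -0.0462 to 0.0217 for Rplp1, -0.0566 to 0.0416 for Rplp2, -0.0276 to 0.1439 for Rps20, -0.0245 to 0.0251 for Rps26, -0.0193 to 0.2242 for Rps27, -0.162 to 0.021 for Rps29 and -0.021 to 0.0403 for Rps3. With the GC content and length correction, without and with the replicate block, Rplp1 stood at 0.0259 and 0.0263, Rplp2 at 0.0227 and 0.0242, and Rps26 at 0.0203 and 0.0197. Rps3 stood at -0.0028 with upper quartile factors and at -0.006 with library size only. Low counts limit Rpl30, Rpl34, Rpl37rt and Rps27, for which a change of 0.3 on the log2 scale lies within the 95% interval.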
